A study of Mus musculus with 6 samples.

Results

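Heat shock and folding chaperones were compared between mouse leukemias labelled as lacking Runx1 and leukemias labelled as Runx1-intact. Both carried MLL-ENL, the product of a chromosomal rearrangement that joins MLL, which methylates histones, to ENL, which acts in transcript elongation. The members were 40 named chaperone genes, each taken with the probe set of highest mean log2 intensity over all 6 arrays, and grouped by compartment. Of the 40, 38 were measured among the 18194 genes of the array, made up of 23 of 25 cytosolic, 11 of 11 endoplasmic reticulum (ER) and 4 of 4 mitochondrial chaperones. Hsf1 and Hsp90ab1 were not analysed here. Both groups of mice received C57BL/6 bone marrow cells carrying MLL-ENL, and leukemic cells were taken from congenic recipients that had become moribund. Per the labels, the marrow of the group named Runx1-KO had its Runx1 gene excised and that of the group named Control was Runx1-intact, with 3 independent leukemias and 3 arrays per group. The sources used here name neither the agent that excised Runx1 nor the ages of the mice, and cells of the recipient could remain in a harvest.

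The 6 arrays had median intensities of 24.4 to 26.0, and the share of genes above background was 57.4% to 64.7%, where background is the highest signal on that array among 27 spike-in probe sets without target. Runx1 itself ran against the labels: its intensities were 1128 to 1629.5 in Runx1-KO-labelled arrays and 680.3 to 1021 in Control, 1.70-fold higher without overlap (adjusted p = 0.322). Whether the probe set lies in the excised part was not analysed here, so every direction below is that of the labels. The Y-linked gene Eif2s3y ran from 3.98 to 6.31 in Runx1-KO-labelled arrays and from 638 to 707 in Control. Xist was higher in all 3 Runx1-KO-labelled arrays, at 1624 to 1895 against 331, 85.4 and 25.3 in Control 1, 2 and 3. Sex and genotype thus cannot be told apart in any comparison here. Xist was above background on every Control array too, highest in Control 1, and the source of that signal was not tested. Gapdh signal at the 3' end over that at the 5' end, a ratio that climbs as RNA degrades, was 7.10 in Runx1-KO 1 and 2.67 to 3.02 in the other 5 arrays, while the same ratio of Actb was 1.11 in Runx1-KO 1 and 1.03 to 1.10 in the others. All 12 measured blast and myeloid identity genes (among them Ptprc, Itgam, Spi1, Mpo and Hoxa9) lay above background on every array. Between the groups 9 of them were higher and 3 lower in Runx1-KO-labelled arrays. Without overlap, Cd34 was lower (46.1, 67.0 and 57.5 against 69.4, 245 and 189), as 11.7% of all genes were. Hoxa9 was higher without overlap (3185, 3282 and 3114 against 2790, 2971 and 2820), as 9.17% of all genes were. Red cell markers summed to an intensity of 4015 in Control 1 against 50.5 to 175 on the other 5 arrays. With whole-population RNA, fewer cells of a type and less RNA per cell cannot be told apart.

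Chaperones bind unfolded or newly made proteins and let them fold, in cycles usually driven by ATP. In the cytosol the heat shock factor HSF1 switches on their genes when unfolded protein accumulates, and HSP70, with J-domain proteins that load it and exchange factors that reset it, hands clients on to HSP90 or to the ring-shaped CCT chaperonin. The ER has its own set, raised by the unfolded protein response, and mitochondria another, which folds imported proteins. Leukemia cells make large amounts of signalling kinases and fusion proteins that are known clients of HSP90.

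No chaperone gene differed between the groups past the threshold, an adjusted p under 0.05 over all 18194 genes by limma. The cytosolic members nevertheless lay mostly on the Control-high side, the ER members did not lean either way, and of the 4 mitochondrial members 3 were lower and 1 higher in Runx1-KO-labelled arrays. The lowest adjusted p among the 38 was 0.275, for Hsph1. Past that threshold stood 0.0879% of all genes. At an unadjusted p under 0.05, 2 members were lower (Hsph1 and Chordc1), where 7.01% of all genes were, and 1 was higher (Hspa4l), where 5.62% of all genes were. The count of 3 in 38 lies below the background of both directions together.

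The side on which the members lay can be read from counts. The log2 difference, Runx1-KO minus Control throughout, was below 0 for 20 of 23 cytosolic, 6 of 11 ER and 3 of 4 mitochondrial members, against 50.8% of all genes. In 12 of 23 cytosolic members all 3 Runx1-KO-labelled arrays lay under all 3 Control arrays, a pattern found in 11.7% of all genes, and in 1 (Hspa4l) they lay above, against 9.17% of all genes. Chaperones are bright, and among the 4140 genes with a mean log2 intensity of at least 8, which 33 of the 38 members reached, 19.8% were separated downward and 58.6% had a difference below 0. As a share of its list, the cytosolic count stood above both of these backgrounds, with no test of that difference. The median log2 difference was -0.17 for cytosolic, -0.07 for ER and -0.23 for mitochondrial members, against -0.01 for all genes and -0.06 for the bright ones.

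**Figure D1:**
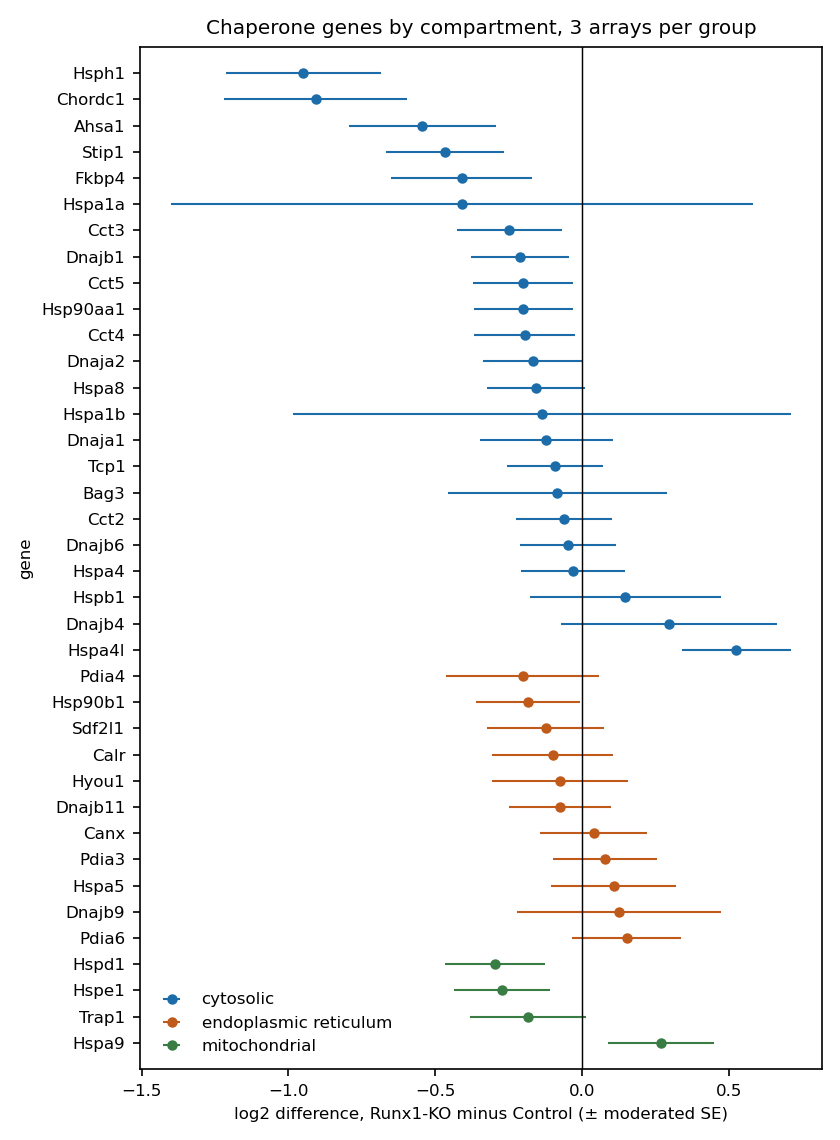
Log2 difference (Runx1-KO minus Control, horizontal axis) of each of the 38 measured chaperone genes with its moderated standard error, 3 arrays per group, coloured by compartment. Most cytosolic genes lie left of 0 with Hsph1 and Chordc1 near -0.9, ER genes lie within -0.20 to 0.15, and Hspa4l is the rightmost at 0.53.

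Among arrays, Runx1-KO 2 held the lowest value for 13 of the 23 cytosolic members and Control 2 the highest for 9. Relative to each gene's own mean, the median cytosolic member stood at 0.01, -0.15 and -0.11 on the log2 scale in Runx1-KO 1, 2 and 3 and at 0.10, 0.12 and 0.05 in Control 1, 2 and 3. The array labelled Runx1-KO 1 was thus the nearest to Control. Without that array the cytosolic median was -0.19, and without Runx1-KO 2 it was -0.14.

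**Figure D2:**
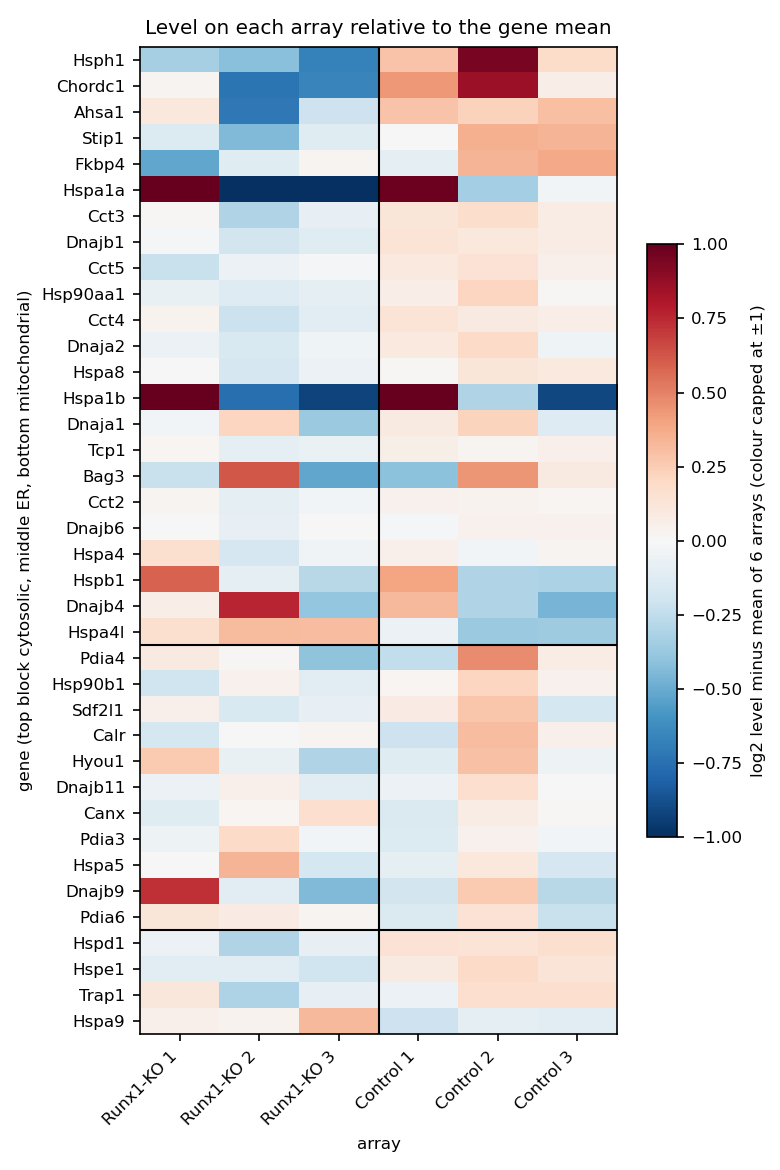
Log2 level of the 38 chaperone genes (rows, cytosolic block on top, then ER, then mitochondrial) on each of the 6 arrays (columns) relative to the gene's mean, with colour capped at 1 in either direction. Cytosolic rows are mostly blue in Runx1-KO 2 and 3 and mostly red in Control, Hspa1a and Hspa1b are red in both arrays numbered 1, and the ER rows show no split between groups.

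HSF1 binds inverted repeats of GAA, called heat shock elements. A motif of 3 alternating units with 2 free bases between them, GAA, TTC, GAA or TTC, GAA, TTC, was searched on both strands in RefSeq promoter windows of the mouse build GRCm38.p6, from 250 bases before to 50 bases after each annotated start. Windows existed for 33 of the 38 measured members, and 5 of those 33 genes (15.2%) held the motif, against 0.662% of 27025 genes. The stretches below come from these 5 genes. In 4 of them all 3 Runx1-KO-labelled arrays lay under all 3 Control arrays, and Hspd1 and Hspe1 among these share 1 stretch. That separation was found in 14 of the 38 measured members, 11.7% of all genes and 19.8% of the bright ones. A link between motif and level was not tested. Each is 30 bases in the direction of the gene, with the matched letters in capitals.
Hsph1 (chr5:149636280-149636309, minus strand): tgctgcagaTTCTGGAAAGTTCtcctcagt
Chordc1 (chr9:18292259-18292288, plus strand): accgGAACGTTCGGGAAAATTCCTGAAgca
Hspe1 (chr1:55088053-55088082, plus strand): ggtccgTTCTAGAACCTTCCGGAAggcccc
Dnajb6 (chr5:29735843-29735872, plus strand): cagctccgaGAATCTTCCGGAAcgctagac
The Chordc1 stretch holds 3 overlapping matches across the start, from base -4 to base 19. In Hsph1 the match lies inside the transcribed part, at bases 16 to 28 or 37 to 49 counted from its 2 annotated starts. The Hspe1 stretch is also the Hspd1 stretch read on the other strand, since these genes point away from each other, and it holds 2 overlapping matches. Dnajb6 carries the motif too, and its groups overlapped on the brightest probe set and were separate downward on 2 dimmer ones. Windows without it, such as that of Hspa1a, say only that this exact spacing is missing there.

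Exchange factors reset HSP70 by releasing its ADP, and the HSP110 proteins among them also hold aggregates in solution. Hsph1, which encodes the stress-inducible HSP110, had intensities of 293, 277 and 231 in Runx1-KO 1, 2 and 3 and of 449.5, 714 and 419 in Control 1, 2 and 3. The groups did not overlap, and the level in Runx1-KO-labelled arrays was 1.93-fold lower (log2 difference -0.95 ± 0.26, SE, n = 3 per group, limma adjusted p = 0.275). Its second probe set gave 171, 179 and 126 against 381, 562 and 279, a log2 difference of -1.32 ± 0.32. Over the 15 alternative fits the difference ran from -1.13 to -0.71 and kept its sign. An exact permutation test of 3 arrays against 3 cannot give a two-sided p below 0.1.

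Hspa4l, an HSP110 relative known from testis and development, went the other way. Its intensities were 741, 828 and 823 in Runx1-KO-labelled arrays and 636, 514 and 518 in Control, with no overlap and a log2 difference of 0.53 ± 0.18 (1.44-fold higher, adjusted p = 0.339). All 5 of its probe sets above background on every array were higher, by 0.12 to 0.55 on the log2 scale. Bag3, an exchange factor that steers clients to autophagy, varied within both groups from 48.8 to 107, with a difference of -0.08 ± 0.37.

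Hspa4, the constitutive HSP110, depended on the probe set read. On the brightest the intensities were 2797, 2234 and 2449.6 in Runx1-KO-labelled arrays and 2595, 2463 and 2552 in Control, a log2 difference of -0.03 ± 0.18. The next in level gave 482, 69.5 and 185 against 885, 1232 and 699, a log2 difference of -2.31 ± 0.69 (adjusted p = 0.326 by limma over all 45101 probe sets). A dimmer one gave 16.6, 19.6 and 20.8 against 111, 201 and 75.1, with only 1 of 3 Runx1-KO-labelled arrays above background, and so was at least 6.22-fold lower (log2 difference -2.65 ± 0.38, adjusted p = 0.134). The groups did not overlap in either of those, while the dimmest, near background, differed by -0.25 ± 0.21. The brightest and the one that was at least 6.22-fold lower share their source sequence, per the platform annotation. Where each lies along the transcript was not analysed here, and a cause was not tested. Over all probe sets 0.0687% passed. Among the 102 probe sets of the members 1 did, a Cct3 probe set below background on all 6 arrays, which has no level to compare.

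**Figure D3:**
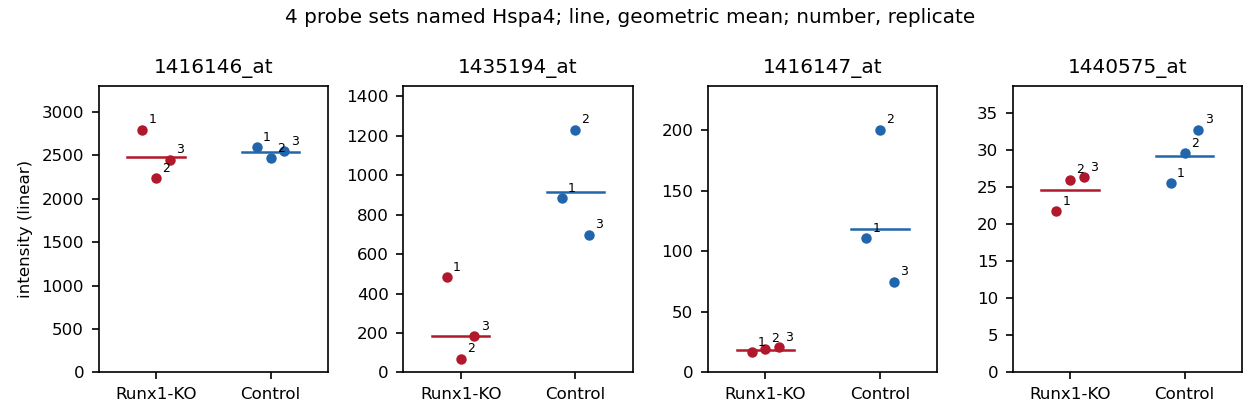
Linear intensity of the 4 probe sets named Hspa4 on each array, in order of mean level, with replicate numbers beside the points and lines at the geometric means. On the leftmost the groups overlap, and on the next 2 every array labelled Runx1-KO lies under every Control array.

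HSP70 proteins are the central ATP-driven chaperones. Hspa8, the constitutive cytosolic form, had intensities of 4407, 3940.1 and 4248 in Runx1-KO-labelled arrays and 4467, 4822 and 4737 in Control. The groups did not overlap, but the log2 difference was only -0.16 ± 0.17 (95% interval -0.56 to 0.25, adjusted p = 0.740). Both next brightest Hspa8 probe sets showed the same separation with log2 differences of -0.34 ± 0.19 and -0.36 ± 0.19.

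The stress-inducible forms were highest on the arrays numbered 1, whichever the genotype. Hspa1b stood at 199, 42.3 and 37.5 in Runx1-KO 1, 2 and 3 and at 190.3, 57.8 and 38.1 in Control 1, 2 and 3. Hspa1a stood at 111, 12.8 and 8.35 against 51.9, 20.8 and 25.8, with Runx1-KO 2 and 3 below background. These genes are near-identical copies of each other, so signal cannot be assigned to either with certainty. Their log2 differences were -0.14 ± 0.85 for Hspa1b and -0.41 ± 0.99 for Hspa1a. Signs changed when single arrays were left out, from -0.91 without Runx1-KO 1 to 0.54 without Control 1 for Hspa1b, and to 0.32 without Runx1-KO 3 for Hspa1a. With both arrays numbered 1 left out, Hspa1b stood at -0.24. For Hspa1a no value without Runx1-KO 1 is given, since both other arrays of its group were below background, and with those raised to their limit the fold over all 6 arrays was only 1.13.

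Immediate early genes, which respond within minutes to stimulation or tissue handling, were high on the same arrays. All 16 measured members had their highest value on an array numbered 1, 8 on Runx1-KO 1 and 8 on Control 1, and their summed intensity was 21359 and 18757 there against 6249.8 to 9486 on the other 4 arrays. Fos, chosen after its values were seen, stood at 2179, 104 and 268 in Runx1-KO-labelled arrays and at 1800.4, 396 and 507 in Control. The part these genes or the handling of the samples play in the Hspa1a and Hspa1b levels was not tested. Between genotypes 0 of the 16 passed, 0 had an unadjusted p under 0.05, and the lowest p values were those of Nr4a1 (-1.15 ± 0.86), Jund (0.29 ± 0.25), Btg2 (-0.87 ± 0.85) and Ier2 (0.37 ± 0.39), in log2 differences. Hspa8 on its 3 brightest probe sets and Hsph1 were not highest on an array numbered 1, while a dim Hspa8 probe set was, at 93.4, 88.4 and 66.3 against 169, 79.1 and 58.8.

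**Figure D4:**
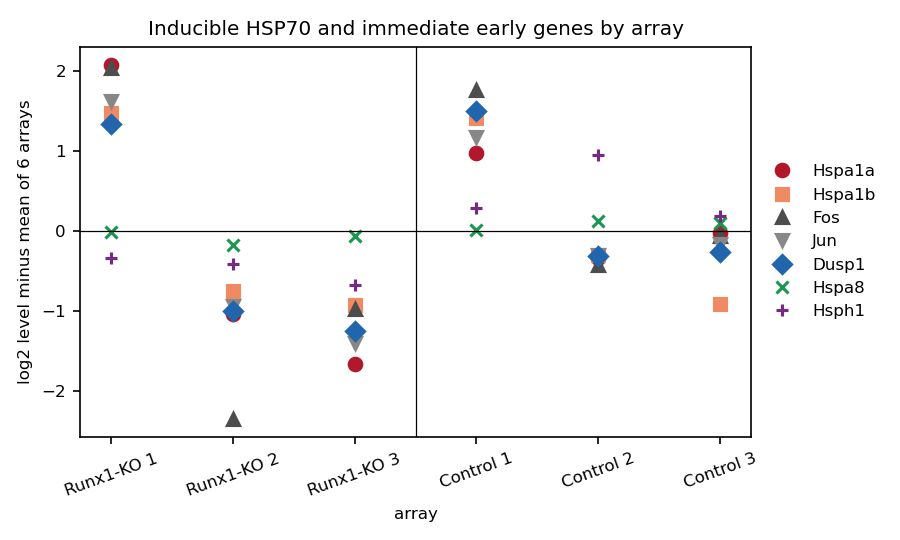
Log2 level of Hspa1a, Hspa1b, 3 immediate early genes, Hspa8 and Hsph1 on each array relative to the gene's mean over 6 arrays. Hspa1a, Hspa1b, Fos, Jun and Dusp1 are high in Runx1-KO 1 and Control 1, the brightest Hspa8 probe set is nearly flat, and Hsph1 splits by group.

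HSP90 finishes the folding of kinases and hormone receptors. For Hsp90aa1, the inducible cytosolic form, intensities were 2137, 2056 and 2104 in Runx1-KO-labelled arrays and 2357, 2617 and 2269.8 in Control, a log2 difference of -0.20 ± 0.17 (adjusted p = 0.662). The groups were separate on this probe set but overlapped on the 3 others above background, with log2 differences of -0.11 to 0.04.

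The HSP90 co-chaperones load, time or stimulate the HSP90 cycle. Of these members 4 of 4 had a log2 difference below 0, against 50.8% of all genes, with a median of -0.50. That is larger than the difference of Hsp90aa1, the only cytosolic HSP90 analysed here. The errors of the co-chaperones were also wider (median SE 0.24 against 0.17 for Hsp90aa1), and the contrast was not tested. Chordc1, a zinc-binding partner of HSP90, stood at 598, 353 and 371 in Runx1-KO-labelled arrays and at 792, 1063 and 615 in Control. It was 1.88-fold lower without overlap (log2 difference -0.91 ± 0.31, adjusted p = 0.335), although Runx1-KO 1 at 598 came close to Control 3 at 615. Ahsa1, which stimulates the HSP90 ATPase, stood at 542, 308 and 437 against 614, 592 and 619.6. Its log2 difference was -0.54 ± 0.25 (1.46-fold lower, adjusted p = 0.429), and it shrank to -0.32 without Runx1-KO 2.

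Stip1, also called HOP, bridges HSP70 and HSP90. It stood at 139, 113 and 140.4 in Runx1-KO-labelled arrays and at 154, 196 and 193 in Control, again without overlap (log2 difference -0.47 ± 0.20, adjusted p = 0.411). Fkbp4, a prolyl isomerase of steroid receptor complexes, ran from 247 to 360.0 against 329.6 to 459, with overlap and a log2 difference of -0.41 ± 0.24. Hsph1, Chordc1, Ahsa1 and Stip1 kept the sign of their difference in all 15 alternative fits, while Fkbp4 went to 0.02 with the mean of all its probe sets. Apart from the brightest, the Fkbp4 probe sets in that mean were below background on all 6 arrays.

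**Figure D5:**
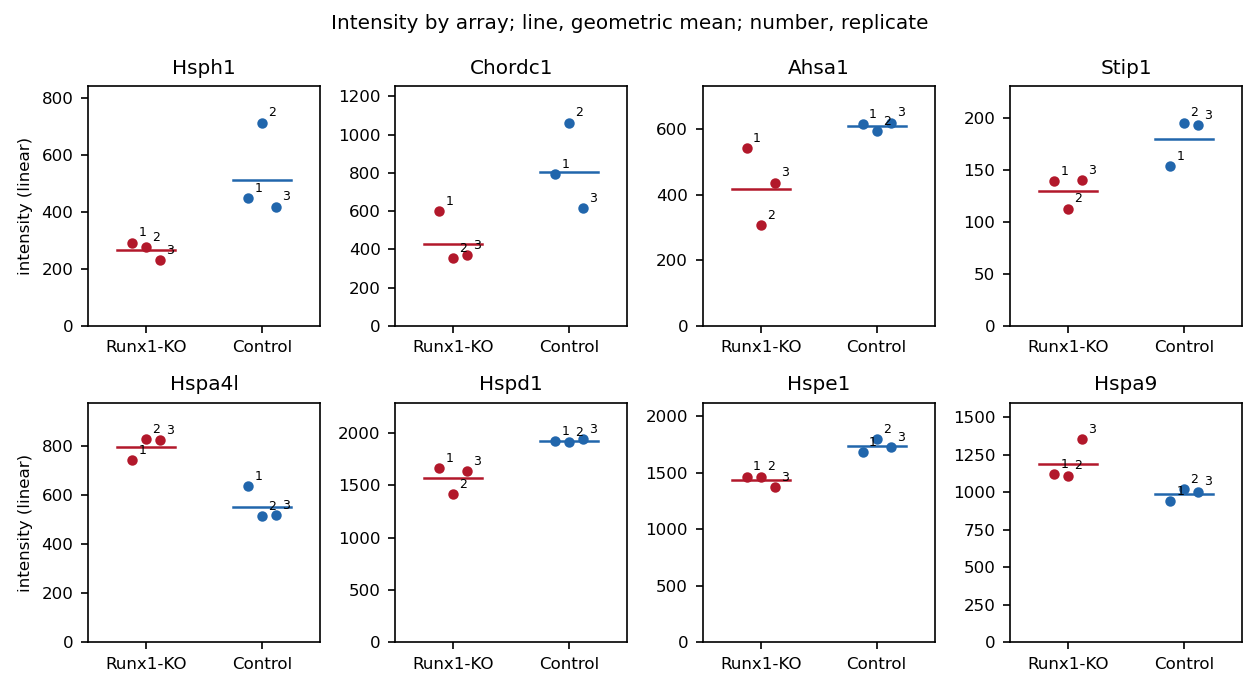
Linear intensity of 8 chaperone genes on each array, with replicate numbers beside the points and lines at the geometric means of the 3 arrays per group. All 3 Runx1-KO-labelled arrays lie under the Control arrays for Hsph1, Chordc1, Ahsa1, Stip1, Hspd1 and Hspe1 and above them for Hspa4l and Hspa9.

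J-domain proteins deliver clients to HSP70. Dnajb1, the main HSP40 of the heat shock response, stood at 2062, 1825 and 1914 in Runx1-KO-labelled arrays and at 2287, 2231 and 2184 in Control, a log2 difference of -0.21 ± 0.17 without overlap. A dimmer Dnajb1 probe set overlapped and lay on the other side, at 0.10 ± 0.23. Dnaja2 was separate only by a hair on its brightest probe set, with 1179 as the highest array labelled Runx1-KO and 1179.8 as the lowest Control array. Its dimmer probe sets above background on every array overlapped, with log2 differences of -0.17 and 0.40. Dnaja1 (-0.12 ± 0.23) had overlapping groups on its brightest probe set and log2 differences of 0.64 and 0.44 on its others, so its direction depends on the probe set. Dnajb4 (0.30 ± 0.37) and Dnajb6 (-0.05 ± 0.16) overlapped too, and Dnajb6 also had 2 dimmer probe sets at -0.55 and -0.63. The small heat shock protein Hspb1, a holdase that works without ATP, was at 26.0, 16.2 and 14.2 against 22.7, 14.0 and 13.9, above background in 1 array of each group, so no fold was stated.

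CCT, also called TRiC, folds actin, tubulin and other proteins inside a double ring. All 5 member subunits had log2 differences below 0, between -0.25 and -0.06, with quantile normalization taking Cct2 to 0.02 and the mean of all probe sets taking Cct4 to 0.08. That mean takes in a Cct4 probe set above background on only 1 array, with a log2 difference of 1.30. Of the 5 subunits Cct3 showed the largest difference, from 1780.0, 1432 and 1671 in Runx1-KO-labelled arrays to 1926, 1997 and 1856 in Control (-0.25 ± 0.18, adjusted p = 0.603). In Cct4 the values were 1722, 1449 and 1552 against 1845, 1792 and 1756, and in Cct5 1120.4, 1255 and 1301 against 1403, 1451 and 1361. Tcp1, the alpha subunit, was separate by little, at 3021, 2797 and 2843 against 3102, 3032 and 3084. Cct2 overlapped, at 2565 to 2771 against 2762 to 2802. On the brightest probe sets 4 of these 5 subunits were thus separated downward, each by at most 1.19-fold, and 0 passed. Dimmer probe sets above background on every array had log2 differences of -0.34 to -0.15 for Cct3 and -0.29 to 0.01 for Cct4. For Cct2 they were -0.15 and 0.07. In each of these 3 genes the groups overlapped on some dimmer probe sets and were separate downward on others.

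The subunits outside the member list had the same sign. With Cct6a, Cct7 and Cct8 added, 8 of 8 CCT subunits were below 0 on the brightest probe set, against 58.6% of genes with a mean log2 of at least 8. There 6 of 8 were separate downward, against 19.8% of those genes, with a median of -0.20. Cct8 stood at 874, 900.2 and 715 in Runx1-KO-labelled arrays and at 1148, 1053 and 1074 in Control (log2 difference -0.40 ± 0.18, adjusted p = 0.427), and Cct7 at 3065, 2446 and 2569 against 3444, 3292 and 3096 (-0.29 ± 0.18). Prefoldin hands nascent chains to CCT, and its subunit Pfdn2 had a log2 difference of -0.46 ± 0.21, as the CCT regulator Pdcl3 had one of -0.45 ± 0.28. Of the 11 genes on that list, 8 were below 0, 0 passed and the median was -0.26.

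ER chaperones did not separate the groups on their brightest probe sets. The groups were free of overlap for 0 of 11. Over all genes 11.7% were separate downward and 9.17% upward, and of the genes with a mean log2 of at least 8, 19.8% downward. Differences of the 11 members ran from -0.20 to 0.15 on the log2 scale, and their lowest adjusted p by limma was 0.712. Hspa5, the ER HSP70 known as BiP and the usual readout of ER stress, stood at 2437, 3091 and 2156 in Runx1-KO-labelled arrays and at 2283, 2625 and 2168 in Control. Its log2 difference was 0.11 ± 0.21 with a 95% interval of -0.41 to 0.62, wider than the difference itself. Hsp90b1, the ER HSP90 known as GRP94, stood at 2158, 2554 and 2287 against 2509, 2875 and 2559.5 (-0.18 ± 0.18). Hyou1, the ER HSP110, had -0.08 ± 0.23.

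The J-domain proteins and isomerases of the ER were alike in this. Sdf2l1, a partner of BiP and its J-proteins, stood at 1393, 1206 and 1268 in Runx1-KO-labelled arrays and at 1421, 1631 and 1187 in Control (log2 difference -0.12 ± 0.20). Dnajb11 had -0.07 ± 0.17. Dnajb9, which restrains the sensor IRE1, varied more, at 993, 557 and 442 against 528, 719 and 495, and its log2 difference of 0.13 ± 0.35 became -0.21 without Runx1-KO 1. Among the protein disulfide isomerases, Pdia6 stood at 936, 911 and 880.2 against 778, 952 and 738 (0.15 ± 0.19), with Pdia3 at 0.08 ± 0.18 and Pdia4 at -0.20 ± 0.26.

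The lectin chaperones hold glycoproteins until they are folded. Calr stood at 2162, 2437 and 2479 in Runx1-KO-labelled arrays and at 2114, 3020.3 and 2519 in Control (log2 difference -0.10 ± 0.21), and Canx differed by 0.04 ± 0.18. A dim probe set of Canx (146, 197 and 152 against 90.7, 109.7 and 120.5) and a dim probe set of Pdia3 (57.4, 55.4 and 46.8 against 33.2, 29.8 and 36.7) were higher without overlap, unlike the bright ones. So was a dim probe set of Hspa5, at 53.8, 63.7 and 44.6 against 36.5, 41.1 and 37.1 (log2 difference 0.49 ± 0.22). Control 2 held the highest value for 7 of the 11 ER members. Without it the ER median went from -0.07 to 0.05, so the side of the ER set rests on that array.

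Genes of the unfolded protein response often carry the ER stress element, CCAAT and CCACG with 9 free bases between them, read by ATF6 with NF-Y. In the same windows it was found on either strand in 5 of 10 ER members with a window, in 0 of 20 cytosolic and 0 of 3 mitochondrial members, and in 0.137% of all genes. The stretches of 3 are shown as examples from an ER HSP70, an isomerase and a lectin chaperone, with matched letters in capitals.
Hspa5 (chr2:34772019-34772048, plus strand): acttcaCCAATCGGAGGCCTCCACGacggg
Pdia6 (chr12:17266485-17266514, plus strand): cagagaCCAATGAAAGGCGGCCACGgcgtg
Canx (chr11:50325795-50325824, minus strand): tattgaCCAATCACCACGCTCCACGaagaa
Hsp90b1 and Calr also held it. The groups overlapped for all 5 genes on the brightest probe set. A match is a run of letters in a window and does not show that a factor was bound.

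Mitochondrial chaperones fold proteins after import through the membranes. Hspd1 (HSP60) and Hspe1 (HSP10) form the mitochondrial chaperonin and its lid, and they share the promoter stretch printed above. Hspd1 stood at 1666, 1415 and 1640.4 in Runx1-KO-labelled arrays and at 1925, 1913 and 1943 in Control, and Hspe1 at 1467, 1466 and 1376 against 1679.9, 1798 and 1729. Both were lower without overlap and by similar amounts, with log2 differences of -0.30 ± 0.17 (adjusted p = 0.520) and -0.27 ± 0.16 (adjusted p = 0.535). A second Hspe1 probe set gave -0.49 ± 0.20. Neither passed, and the 95% intervals reach 0.12 for both.

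Hspa9, the mitochondrial HSP70 that pulls proteins in, lay on the other side. It stood at 1119.9, 1109.6 and 1353 in Runx1-KO-labelled arrays and at 940.4, 1019 and 1004 in Control (log2 difference 0.27 ± 0.18, adjusted p = 0.575), with all 3 of its probe sets above background on every array higher. Trap1, the mitochondrial HSP90, overlapped at 279, 209 and 244 against 247, 289 and 291 (-0.18 ± 0.20). The partners within this organelle thus differed in sign, and the difference between them was not tested.

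The fit draws the variance of each gene towards a single value for all genes. When that value was allowed to depend on level, with robust fitting, 9 members were lower at an unadjusted p under 0.05, 7 cytosolic and 2 mitochondrial, where 8.77% of all genes and 15.1% of those with a mean log2 of at least 8 were. The lower cytosolic ones were Hsph1, Chordc1, Ahsa1, Cct3, Dnajb1, Hsp90aa1 and Hspa8, and the others Hspd1 and Hspe1. Of the members 1 was higher at such a p, where 985 of 18194 genes and 280 of the 4140 bright ones were. The lowest adjusted p was then 0.127, for Hsph1, so 0 passed there too.

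Wider lists of folding genes were read beside the members, against 50.8% of all genes below 0, 11.7% separate downward and 9.17% upward (58.6% and 19.8% below 0 and downward among the bright genes). Among 30 other cytosolic chaperones and co-chaperones, 20 were below 0, 8 were separate downward and 0 upward, 0 passed and the median log2 difference was -0.19. Hsf2, a relative of HSF1, stood at 16.8, 18.9 and 21.6 in Runx1-KO-labelled arrays, with 1 of 3 above background, and at 55.1, 45.8 and 30.3 in Control, at least 2.20-fold lower (adjusted p = 0.221). Stub1, the ubiquitin ligase CHIP that tags HSP70 and HSP90 clients, had a log2 difference of -0.50 ± 0.21, the kinase-specific HSP90 adaptor Cdc37 one of -0.45 ± 0.20, and the HSP90 isomerase Fkbp5 one of -0.67 ± 0.27. These 4 were the genes of lowest p, and other HSP90 partners of the list lay elsewhere, such as Unc45a at 0.37 and Tomm34 at -0.01.

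Of 30 other ER folding and unfolded protein response genes, 17 were below 0 and 13 above, 5 were separate downward and 2 upward, near the shares over all genes, and the median was -0.14. Dnajc10, an ER reductase with a J-domain, stood at 640.3, 651 and 562 in Runx1-KO-labelled arrays and at 1134, 1020.1 and 1337 in Control. Its log2 difference of -0.91 ± 0.19 had an adjusted p of 0.199 by limma, and of 0.0323 with the variance trend and robust fitting, where it was the only gene of that list to pass. Herpud1, a part of ER-associated degradation, was on the other side at 738, 1095 and 815 against 518, 646 and 483 (0.68 ± 0.23, adjusted p = 0.338). Hspa13 (-0.82 ± 0.33) and Sdf2 (-0.47 ± 0.19) were separate downward. Targets of the unfolded protein response thus showed no common side.

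Of 14 other mitochondrial folding and quality control genes, 11 were below 0, 4 were separate downward and 2 upward, 0 passed and the median was -0.22. Runx1-KO 2 held the lowest value for 9 of the 14. Relative to each gene's own mean, the median gene stood at 0.14, -0.34 and -0.10 on the log2 scale in Runx1-KO 1, 2 and 3. In Control 1, 2 and 3 it stood at 0.07, 0.13 and 0.08, so Runx1-KO 1 was the highest array. Spg7, a subunit of the inner membrane m-AAA protease, stood at 27.1, 29.1 and 37.0 in Runx1-KO-labelled arrays and at 56.0, 50.1 and 55.9 in Control (log2 difference -0.81 ± 0.20, adjusted p = 0.231). Clpx, which unfolds proteins for the matrix protease ClpP, was higher at 201, 171 and 179.7 against 126, 119 and 122 (0.58 ± 0.17, adjusted p = 0.288). Hscb, a J-protein of iron-sulfur cluster assembly (-0.74 ± 0.23), and Grpel2, an exchange factor of Hspa9 (-0.39 ± 0.17), were separate downward.

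Markers of other cells differed between the groups or stood out on single arrays. Mature neutrophil markers were higher in Runx1-KO-labelled arrays for 10 of 10 measured genes, with a summed intensity of 16390.1 to 18993 against 8421 to 13162 in Control. Monocyte and macrophage markers were lower for 10 of 11, at 2792 to 3014 against 4916 to 6408, although C1qa was below background on all 6 arrays. Over all genes 50.8% had a difference below 0, and at an unadjusted p under 0.05 by limma 5.62% were higher and 7.01% lower. Of the marker lists, 8 neutrophil genes stood at such a p, all higher, and 8 monocyte genes, C1qa included, all lower. By limma 0 of these passed the adjusted threshold, while with the variance trend and robust fitting 3 neutrophil genes (Cxcr2, Il1r2 and Ngp) were higher past it and 2 monocyte genes (Mpeg1 and Csf1r) lower. T and NK cell markers summed to 50.9 to 87.5 against 118 to 205, but 6 of 7 were below background on all 3 Runx1-KO-labelled arrays, and 1 of those 6, Ncr1, on all 6 arrays, so their differences in level are not measured. Of the 8 B and plasma cell markers 7 were higher, at 847 to 1457 against 839 to 1065, of which Pax5 was below background on every array. The part of these cells in the chaperone differences was not tested. The red cell markers were high in Control 1 alone. Without that array the cytosolic median was -0.18, the ER median -0.11 and the mitochondrial median -0.28. The part of red cells in the chaperone medians was not tested.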

How the data were processed

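One linear intensity value per probe set and array was deposited, for the 45101 probe sets of an Affymetrix mouse array read in 1 colour. Per the labels' protocols, RNA was purified on spin columns and the fragmented cDNA labelled with biotin. Probe summarisation, background subtraction, normalization and detection calls are not given in the sources used here. The values had a floor of 1, with 1 value below it, and all 6 columns were mapped by name.

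Gene names came from the platform annotation: 34958 probe sets had 1 symbol, 932 several and 9211 none, and those with several or none were left out. By Entrez identifier 34754 were found in a RefSeq table and 0 names changed. Intensities were taken to log2 without covariate or filter and compared with limma 3.58.1 (lmFit, eBayes) in R 4.3.3, two-sided, with Benjamini-Hochberg adjustment at 0.05 over 18194 genes. Standard errors are the moderated ones. The script was tested on simulated data. Labels call the leukemias independent.

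Genes named were all members, with values on every array for those at an unadjusted p under 0.05, those with separate groups, the leading HSP70 and HSP90 of each compartment, Hspa1a, Hspa1b and the member of lowest p in other role groups, then the 4 genes of lowest p above background in each wider list. Other values were added after they were seen. Members and lists were chosen with earlier results of these data known. Folds with arrays below background were computed with those arrays raised to their limit.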

Additional observations from a re-analysis of the deposited data

How the results depend on the processing

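Of the 38 measured chaperone genes, 0 passed an adjusted p of 0.05 in any of the 15 alternatives, in either direction, over 568 fitted member values. Of these, 22 kept the sign of their difference throughout, and 16 changed it at least once. The count at an unadjusted p under 0.05 on the lower side, 2 as reported, was 6 with an offset of 16 before log2, 4 with genes of mean log2 of at least 5, 4 with the mean of all probe sets per gene, 9 with the variance trend and robust fitting, 4 with array weights, and 1 to 4 with single arrays left out. On the higher side, 1 as reported, it was 0 with the mean of all probe sets, 2 with array weights and 0 to 1 with single arrays left out. Of all genes 7.01% were lower and 5.62% higher at such a p as reported, and 8.77% lower with the variance trend. For the other settings that share is not given, so those member counts cannot be set against it. All-gene calls past the adjusted threshold, 16 as reported, were 64 with the offset, 104 with the variance trend and 71 with array weights. The cytosolic median of -0.17 was -0.091 with the mean of all probe sets and -0.11 with quantile normalization, and the mitochondrial median of -0.23 was -0.33 without both arrays numbered 1. The causes were not tested. With the replicate number as a block, the higher count was 0 and the lower count 2, while calls over all genes went from 16 to 0. The labels do not say that shared numbers pair the arrays, so the numbers were not taken to pair them. Same-numbered arrays deviated from their group means with correlations of -0.01, -0.09 and 0.04 across genes. These took in 5434 genes below background on every array, so they cannot tell whether same-numbered arrays share a batch. Both arrays numbered 1 were high in immediate early genes. The fit of every probe set was added after the data were seen. Members near background (Hspa1a, Hspb1) and 3 arrays per group limit what could be detected.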
